A study of Rattus norvegicus with 8 samples.

Results

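The genes described here encode the core path by which ovarian cells turn cholesterol into estradiol. The path was taken as 8 genes named by symbol: Star, Cyp11a1, Fdx1, Fdxr, Hsd3b1, Cyp17a1, Cyp19a1 and Hsd17b1. Of these 8 genes, 7 had at least 1 probe set annotated to that symbol alone, out of 14217 genes with such a probe set in the whole series. In the array annotation used here, which leaves 9780 of 31042 probe sets without a symbol, none carried Fdxr, the reductase that passes electrons to ferredoxin, so Fdxr was not analysed. Each measured gene is represented by its brightest probe set, judged by the mean of the 6 single-animal arrays, and its other probe sets are given beside it.

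Female Sprague-Dawley rats received a silicone capsule that released 83 µg of dihydrotestosterone (DHT), an androgen that aromatase does not convert to estrogen, per day for 12 weeks. Control (CTL) rats received an empty capsule, and the ovarian cortex was taken from all animals at 15 weeks of age. Per group, 3 arrays held RNA of 1 animal each, and 1 further array, numbered replicate 4, held the pooled RNA of those animals. The treatment is a model of polycystic ovary syndrome. The study's methods describe corpora lutea in most CTL ovaries and few or none in DHT ovaries. The study also reports more follicle cysts, a relatively thin granulosa layer and theca hyperplasia after DHT. The tissue therefore differed between the groups in its cell types as well as in treatment, and in such bulk RNA fewer cells of a type and less RNA per cell cannot be told apart.

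Steroid synthesis starts when StAR moves cholesterol to the inner mitochondrial membrane, where CYP11A1, fed with electrons by ferredoxin and ferredoxin reductase, cuts it to pregnenolone. 3β-hydroxysteroid dehydrogenase then makes progesterone, the main product of the corpus luteum. Theca cells carry CYP17A1 and make androgens, and granulosa cells carry aromatase (CYP19A1) and HSD17B1 and make estradiol from them.

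All values are log2 expression per probe set, so a difference of 1 is a 2-fold change. Levels of different probe sets are not compared. Calls needed at least a 2-fold change, an unadjusted p no higher than 0.01 and an adjusted p no higher than 0.1 in limma over 31042 probe sets, and any adjusted p given for a gene is from this fit of 3 DHT against 3 CTL arrays. All 7 genes read above the background level of 2.62 to 3.07 on all 6 arrays. CTL replicate 3 stood apart from the other arrays, with a median of 3.25 against 2.97 to 3.03 and a hybridization control level of 9.76 against 7.35 to 8.33. The 3' probe set of Gapdh exceeded its 5' probe set, a sign of labelled RNA short at the 5' end, by 0.39 and 0.62 on CTL replicates 1 and 2, by 3.49 on CTL replicate 3 and by 2.99 to 3.98 on the DHT replicates. This measure moved with the groups except in CTL replicate 3. With it as a covariate in limma the differences were -2.87 for Star, -1.93 for Cyp11a1, -0.63 for Fdx1, -0.27 for Hsd3b1, 4.19 for Cyp17a1, -3.50 for Cyp19a1 and 2.42 for Hsd17b1, with the same directions as without it and none called. Differences against CTL replicate 3 alone, whose value lies within the DHT range, are therefore given beside the main ones, with no test. For the lists of other genes they are given as medians.

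None of the 7 measured genes was called lower or higher by limma, against 0.351% of all probe sets called lower and 0.68% called higher. The unadjusted limma p was below 0.05 for 6 of the 7 genes, the exception being Hsd3b1 at 0.055, and for 11.9% of all probe sets. The difference was negative for Star, Cyp11a1, Fdx1, Hsd3b1 and Cyp19a1 and positive for Cyp17a1 and Hsd17b1. The median of the 7 differences was -1.68, against -0.029 over all probe sets, and the median absolute difference was 2.65 against 0.14. In 4 of the 7 genes every DHT array lay below every CTL array, as in 6.85% of all probe sets, and in 1 gene, Hsd17b1, every DHT array lay above, as in 10.6%. The exact two-sided permutation test over 3 against 3 arrays cannot give a p under 0.1, and each of these 5 genes had that value. The plot of all arrays shows these patterns gene by gene.

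**Figure D1:**
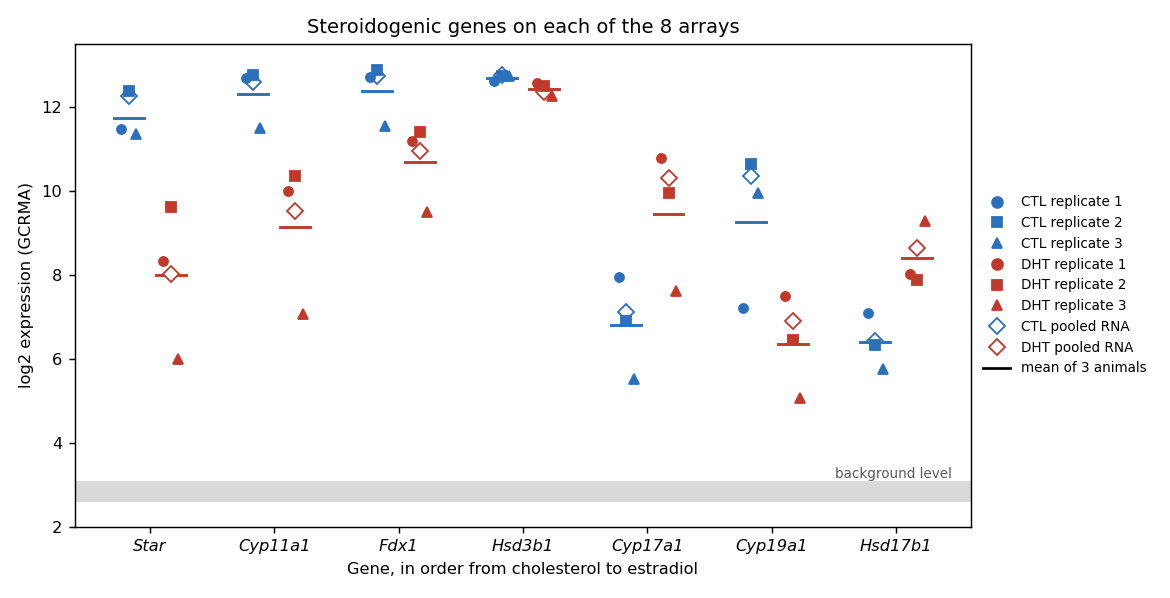
Log2 expression of the 7 measured genes on each of the 8 arrays, with filled symbols for single animals, open diamonds for pooled RNA, lines for the mean of 3 animals and a grey band for the background level. DHT arrays lie below CTL arrays for Star, Cyp11a1 and Fdx1 and above them for Hsd17b1, while Hsd3b1 stays between 12.26 and 12.74 on the single animals.

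Star, the cholesterol carrier of the first step, had the largest difference among the 7 genes. Its log2 values were 8.34, 9.62 and 6.01 on DHT replicates 1 to 3 and 11.47, 12.39 and 11.35 on CTL replicates 1 to 3. The groups did not overlap, and DHT replicate 3 was lowest by more than 2 log2 units. The means were 7.99 ± 1.83 (SD, n = 3) in DHT and 11.73 ± 0.57 in CTL, a difference of -3.75 (SE 0.97, 95% interval -6.21 to -1.28), or 13.4-fold lower in DHT, with a limma adjusted p of 0.21. The difference was -3.36 against CTL replicate 3 alone and -3.94 against CTL replicates 1 and 2. The second probe set of Star read 7.03, 8.46 and 3.89 on the DHT arrays and 11.92, 12.50 and 9.10 on the CTL arrays, again without overlap, a difference of -4.72 (limma adjusted p 0.305). Its difference was -2.64 against CTL replicate 3 alone and -5.75 against CTL replicates 1 and 2.

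Cyp11a1 encodes the side-chain cleavage enzyme that makes pregnenolone. Its log2 values were 10.01, 10.36 and 7.07 in DHT and 12.70, 12.76 and 11.50 in CTL. The groups did not overlap, and DHT replicate 3 and CTL replicate 3 were each the lowest of their group. The means of 9.15 ± 1.80 and 12.32 ± 0.71 (SD, n = 3) differed by -3.17 (SE 0.98, 95% interval -5.67 to -0.67), 9.01-fold lower in DHT, with a limma adjusted p of 0.29. Against CTL replicate 3 alone the difference was -2.35.

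Fdx1 encodes ferredoxin, the electron carrier of the same step. Its values were 11.18, 11.40 and 9.51 in DHT and 12.72, 12.88 and 11.54 in CTL. Every DHT array lay below every CTL array, with 0.14 between DHT replicate 2 and CTL replicate 3. The difference was -1.68 (SE 0.64, 95% interval -3.32 to -0.052), 3.21-fold lower in DHT, with a limma adjusted p of 0.405, and -0.85 against CTL replicate 3 alone. The second probe set of Fdx1 gave another picture. It read 4.55, 4.54 and 3.46 in DHT and 4.54, 4.46 and 6.96 in CTL, so that only CTL replicate 3 stood above the DHT arrays (difference -1.14, limma adjusted p 0.758).

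Promoter sequence was at hand for 4 of the 8 genes (Cyp11a1, Fdx1, Fdxr and Hsd3b1), from RefSeq on GRCr8. Those of Cyp11a1 and Fdx1 are shown because their products work as a pair in cholesterol cleavage and their arrays ran in the same order within each group. Each run holds the 250 bases before the start, 5′ to 3′ on the gene's strand, at chr8:67318415-67318664 on the plus strand for Cyp11a1 and chr8:61183646-61183895 on the minus strand for Fdx1. Capitals mark AGGTCA, the core of the sites of NR5A1 and other nuclear receptors, and in Fdx1 also TGGCCTT, which reads AAGGCCA on the opposite strand.
Cyp11a1: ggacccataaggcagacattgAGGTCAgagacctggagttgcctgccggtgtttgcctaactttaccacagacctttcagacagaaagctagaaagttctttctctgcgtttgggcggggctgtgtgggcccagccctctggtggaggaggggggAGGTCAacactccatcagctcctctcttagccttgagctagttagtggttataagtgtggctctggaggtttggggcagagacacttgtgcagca
Fdx1: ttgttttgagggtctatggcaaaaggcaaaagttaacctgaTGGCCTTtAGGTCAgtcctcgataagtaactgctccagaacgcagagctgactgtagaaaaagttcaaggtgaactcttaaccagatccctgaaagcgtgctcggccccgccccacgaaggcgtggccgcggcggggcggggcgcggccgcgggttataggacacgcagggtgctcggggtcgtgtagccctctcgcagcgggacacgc
Cyp11a1 held AGGTCA at positions -229 and -95 from the start, and Fdx1 held it at -201 with AAGGCCA beside it at -209. Of 33469 RefSeq promoters of 300 bases (250 before the start and 50 after it), searched on both strands, 16.2% held AGGTCA and 6.27% held AAGGCCA. The longer NR5A forms AAGGTCA (4.61% of promoters) and CAAGGTCA (1.52%), both of which contain AGGTCA, were in none of the 4 promoters. Neither were the cAMP response element TGACGTCA (1.83%), its core TGACG (21.2%), or the GATA motifs AGATAA (11.6%) and AGATAG (9.15%). The promoter of Hsd3b2, whose transcript the array's Hsd3b1 probe set cites, held AGATAA at -53. AGGTCA was added to the search after the sequences had been seen.

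The probe set annotated as Hsd3b1, the 3β-hydroxysteroid dehydrogenase that makes progesterone, was among the brightest of the table, with 0.0258% to 0.155% of probe sets brighter. It read 12.56, 12.49 and 12.26 in DHT and 12.61, 12.73 and 12.74 in CTL. The groups did not overlap, but the gap between the nearest arrays was 0.044. The difference of -0.25 (SE 0.10, 95% interval -0.52 to 0.0084) was 1.19-fold, with a limma adjusted p of 0.435. Against CTL replicate 3 alone the difference was -0.30. Whether a signal this bright could show the full size of a change was not tested. The RefSeq transcript that the array annotation gives for this probe set now belongs to Hsd3b2 in RefSeq, which lists Hsd3b1 as a synonym, so the name of this gene is uncertain.

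A further probe set annotated to Hsd3b1, Hsd3b2 and Hsd3b3 together, and so outside the rule, read 4.73, 5.67 and 3.17 in DHT and 9.51, 7.62 and 7.51 in CTL. Its groups lay apart, and its difference was -3.69 (SE 0.86), 12.9-fold lower in DHT, with a limma adjusted p of 0.169, and -2.99 against CTL replicate 3 alone. Which genes of the family each of these probe sets reads was not tested.

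Cyp17a1, the androgen-making enzyme of theca cells, was higher in DHT than in CTL on average but with overlap. Its values were 10.78, 9.95 and 7.62 in DHT and 7.96, 6.91 and 5.52 in CTL. DHT replicate 3 lay below CTL replicate 1, and both other DHT arrays lay above all CTL arrays. The means of 9.45 ± 1.64 and 6.80 ± 1.22 (SD, n = 3) differed by 2.65 (SE 1.03, 95% interval 0.026 to 5.28), 6.29-fold, with a limma adjusted p of 0.418 and an exact permutation p of 0.2. Against CTL replicate 3 alone the difference was 3.93.

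Cyp19a1 encodes aromatase, which turns androgens into estrogens in granulosa cells. Its values were 7.51, 6.46 and 5.08 in DHT and 7.20, 10.64 and 9.94 in CTL. CTL replicate 1 read below DHT replicate 1 and more than 2 log2 units below the other CTL arrays, so the groups overlapped. The difference was -2.91 (SE 1.11, 95% interval -5.72 to -0.10), 7.53-fold lower in DHT, with a limma adjusted p of 0.404 and an exact permutation p of 0.2. A second probe set gave the same order of arrays, with 5.24, 4.38 and 3.47 in DHT, 5.19, 8.59 and 8.21 in CTL and a difference of -2.97 (limma adjusted p 0.36). Against CTL replicate 3 alone the differences of these probe sets were -3.59 and -3.85. The third was above background on 2 of the 6 arrays, CTL replicates 1 and 2 at 4.90 and 8.30. The DHT arrays, at 2.40 to 2.53, gave only a bound there. With the background level in their place, this probe set was at least 5.94-fold higher in CTL (limma adjusted p 0.585), and against CTL replicate 3 alone, itself at background, no fold is given.

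Hsd17b1, which turns estrone into estradiol in granulosa cells, was the gene of the 7 in which every DHT array lay above every CTL array. Its values were 8.01, 7.88 and 9.28 in DHT and 7.09, 6.32 and 5.75 in CTL. DHT replicate 3, lowest of its group for the other 6 genes, was highest for this one. The means of 8.39 ± 0.78 and 6.39 ± 0.67 (SD, n = 3) differed by 2.0 (SE 0.52, 95% interval 0.67 to 3.33), 4.0-fold, with a limma adjusted p of 0.213. The difference was 2.64 against CTL replicate 3 alone.

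The arrays of pooled RNA, which hold RNA of the same animals and add no animal, gave the same directions. DHT pool minus CTL pool was -4.23 for Star, -3.07 for Cyp11a1, -1.79 for Fdx1, -0.40 for Hsd3b1, 3.19 for Cyp17a1, -3.45 for Cyp19a1 and 2.20 for Hsd17b1. Counted as replicate 4 of each group, these arrays took 5 of the 7 genes past the call criteria in limma. These were Star (adjusted p 0.0258), Cyp11a1 (0.0546), Fdx1 (0.0983) and Cyp19a1 (0.0984), called lower, and Hsd17b1 (0.0265), called higher. That fit counts the RNA of each animal more than once, and it called 966 probe sets over the table against 320 without the pooled arrays. Leaving out CTL replicate 3 gave adjusted p of 0.162 for Star, 0.177 for Cyp11a1, 0.170 for Fdx1, 0.308 for Hsd3b1, 0.35 for Cyp17a1, 0.337 for Cyp19a1 and 0.183 for Hsd17b1, and called none of the 7 genes, while 1622 probe sets were called over the table.

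**Figure D2:**
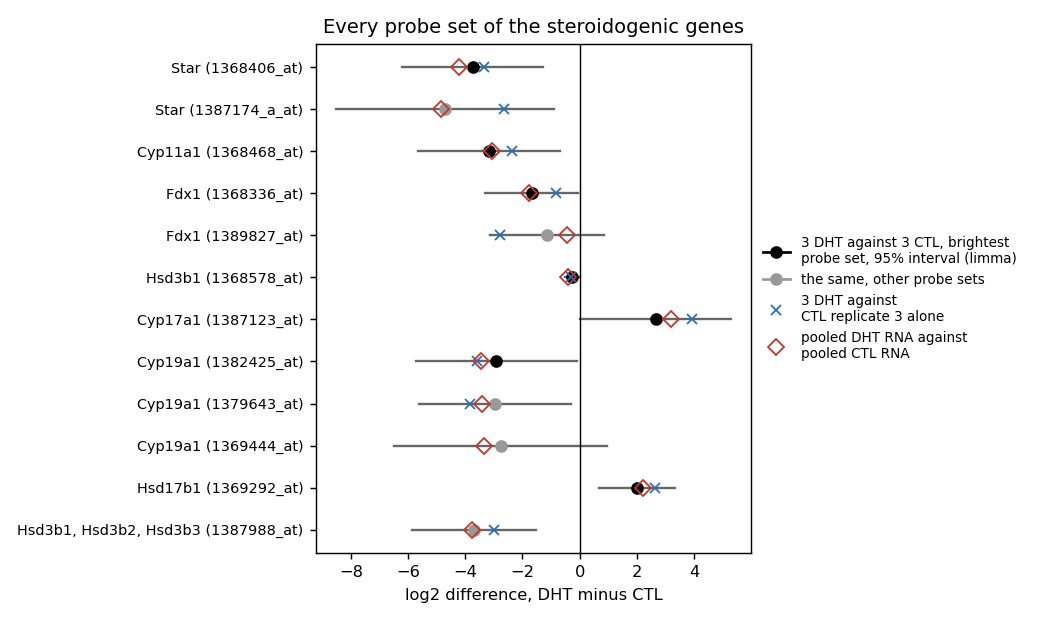
DHT minus CTL differences on the log2 scale for the 11 probe sets of the 7 genes and for the shared Hsd3b probe set, with the 95% interval of limma, the difference against CTL replicate 3 alone (crosses) and that between the pooled arrays (diamonds). The third Cyp19a1 probe set has no cross because the DHT arrays and CTL replicate 3 were at background there. The crosses of the Fdx1 probe sets lie at -0.85 and -2.78.

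Whether Cyp17a1 differed from the other enzymes by another amount was asked within each array, by subtracting the log2 value of each other gene from that of Cyp17a1. Cyp17a1 minus Star was 2.44, 0.33 and 1.62 in DHT and -3.51, -5.48 and -5.83 in CTL, with every DHT array above every CTL array, a shift of 6.40. The shift was 5.83 relative to Cyp11a1, 5.57 relative to Cyp19a1, 4.34 relative to Fdx1 and 2.91 relative to Hsd3b1. In each of these 5 differences the DHT and CTL arrays did not overlap, and the exact permutation p was 0.1, the smallest possible, or 0.12 after adjustment over the 6 differences computed. For Hsd3b1 the nearest arrays were 0.016 apart. Each shift follows from the single-gene differences given above. Star, Cyp11a1, Fdx1 and Hsd3b1 were already without overlap on their own, in the direction opposite to Cyp17a1. How many of all probe sets would separate from Cyp17a1 in this way was not computed. Relative to Hsd17b1 the shift was 0.65, with overlap and an exact permutation p of 0.7, so no difference in shift between these genes was detectable with 3 arrays a group. DHT replicate 3 read Cyp17a1 -1.66 relative to Hsd17b1, below all CTL arrays.

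**Figure D3:**
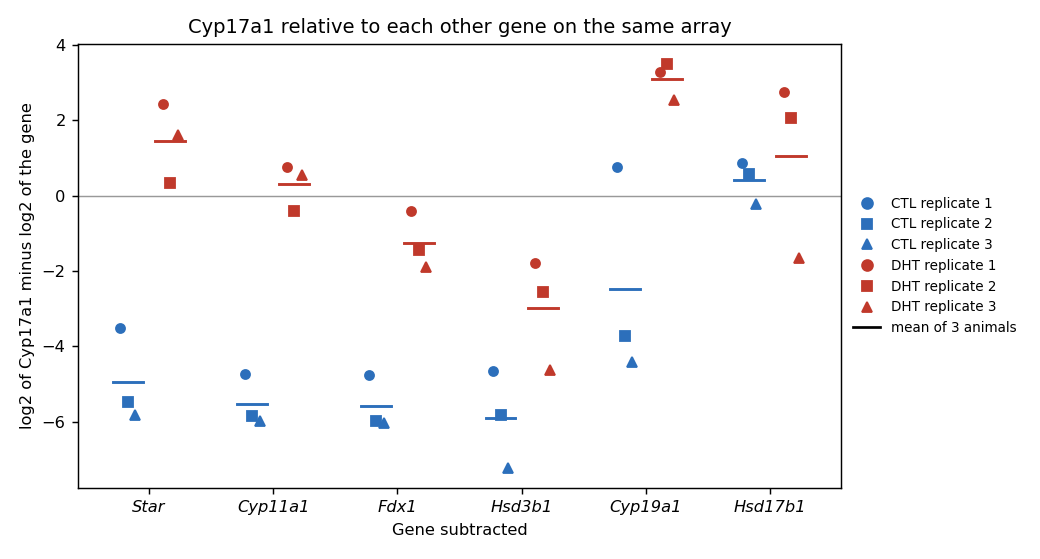
Log2 value of Cyp17a1 minus that of each other gene on the same array, for 3 DHT and 3 CTL animals, with lines for group means. DHT points lie above CTL points for Star, Cyp11a1, Fdx1, Hsd3b1 and Cyp19a1, and the groups overlap for Hsd17b1.

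Profiles over the 6 arrays were compared by the root mean square difference of the gene-centred log2 values, as a description. Among the 7 genes the nearest pair was Star and Cyp11a1 (0.514), followed by Cyp11a1 and Fdx1 (0.867), and the farthest was Star and Cyp17a1 (3.34). Of 10549 genes, the nearest to Star were Tlcd4 (0.469) and Cyp11a1, and the nearest to Cyp11a1 were Scarb1 (0.308), the receptor that takes up cholesterol from high-density lipoprotein, and Mrap (0.488), an accessory protein of melanocortin receptors. Fdx1 ran nearest to Msrb1 (0.260) and Herc3 (0.276). Igfbp2 (0.737), an insulin-like growth factor binding protein, and Kcnh1 (0.781), a potassium channel, were nearest to Cyp17a1, and Slc16a6 (0.709) and Mt3 (0.793), a metallothionein, to Cyp19a1. Nearest to Hsd17b1 were Inhbb (0.293), an inhibin and activin subunit, and Penk (0.322), which encodes proenkephalin. Hsd3b1 varied so little that a flat profile would lie only 0.162 from it. Its nearest genes were Arel1 (0.0575) and Alkbh3 (0.0621). The arrays and their 3' to 5' differences are common to all these profiles.

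Other enzymes of steroid metabolism showed a smaller median. Of 35 such genes 26 were measured, none was called by limma, and 2 had an unadjusted p below 0.05, as had 11.9% of all probe sets. Genes of this and the following lists are shown by their brightest probe set only, and some have others. Of the 26 differences, 17 were negative and 9 positive, with a median of -0.049, or -0.065 against CTL replicate 3 alone. On all arrays 7 genes were at background: Hsd3b5, Hsd17b3, Hsd17b6, Akr1c1, Cyp21a1, Cyp11b1 and Sult2b1. Hsd17b7, which acts on estrone and in cholesterol synthesis, read 3.97, 4.25 and 4.23 in DHT and 7.62, 11.48 and 10.25 in CTL. Its groups lay apart by more than 3 log2 units, and its difference of -5.64 (SE 1.0, limma adjusted p 0.106) exceeded that of Star. Hsd17b12, Cyp1b1 and Cyp27a1 had differences of -0.44, 1.54 and 0.38 (limma adjusted p 0.339, 0.442 and 0.479). Akr1c3, for which RefSeq lists Akr1c18, a progesterone-reducing enzyme of the corpus luteum, as a synonym, read 9.88, 11.11 and 5.95 in DHT and 12.43, 11.53 and 10.77 in CTL, a difference of -2.60 with overlap (limma adjusted p 0.605).

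Of 20 genes that supply cholesterol or electrons to the path, 18 were measured, 1 was called lower and none higher, and 4 had an unadjusted p below 0.05. Over all probe sets 0.351% were called lower, 0.68% were called higher and 11.9% had such a p. Stard4, a cytosolic carrier of cholesterol, fell by 2.68 on the log2 scale (limma adjusted p 0.0508), with 3.91 to 3.93 on the DHT arrays and 6.18, 7.15 and 6.48 in CTL. Scarb1 read 9.35, 9.75 and 6.51 in DHT and 11.86, 12.37 and 10.14 in CTL, without overlap, a difference of -2.92 (limma adjusted p 0.383). Soat1, which stores cholesterol as esters, and Por, the reductase that serves CYP17A1 and aromatase, had differences of -0.84 and -0.79 (limma adjusted p 0.236 and 0.277). The median of the 18 genes was -0.081, and 0.48 against CTL replicate 3 alone.

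Of 26 regulators and hormone receptors of the path 24 were measured, none was called lower and 2 were called higher, and 7 had an unadjusted p below 0.05. The shares over all probe sets were 0.351%, 0.68% and 11.9%. Gata4, a transcription factor of granulosa and theca cells, rose by 2.43 (limma adjusted p 0.0745), from 6.58, 6.72 and 5.57 in CTL to 8.68, 8.46 and 9.02 in DHT. Nr0b1, a repressor of NR5A1 activity, rose by 1.97 (limma adjusted p 0.0819), from 4.15, 4.25 and 3.68 in CTL to 6.34, 6.23 and 5.43 in DHT. Nr5a1 itself, which binds the promoters of steroidogenic genes, read 8.11, 8.31 and 7.44 in DHT and 6.61, 6.64 and 4.54 in CTL. Its difference of 2.03 (limma adjusted p 0.312) had the sign of Cyp17a1 and Hsd17b1 and the opposite sign to the other measured genes of the path. Its part in their levels was not tested. Crem and Nr2f2 had differences of -0.52 and 1.04 (limma adjusted p 0.127 and 0.171). The median of the 24 genes was 0.035, or 0.13 against CTL replicate 3 alone. Nr4a3, Esr1, Esr2 and Pgr were at background on all arrays. With any single DHT array left out no probe set of the table was called, so the calls of Gata4, Nr0b1 and Stard4 were all lost. Without CTL replicate 1 or CTL replicate 2 no regulator was called higher either, while 181 and 92 probe sets of the table were called and 1 supply gene was called lower.

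**Figure D4:**
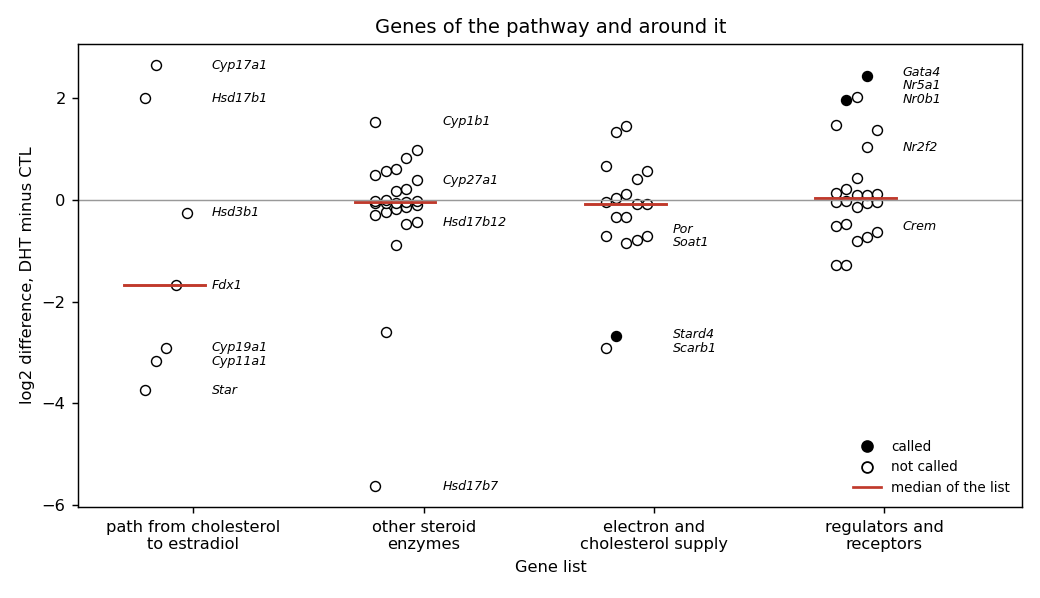
DHT minus CTL differences on the log2 scale for the 7 genes of the path and for 3 lists of genes around it, with filled circles for called genes and red lines for medians. The genes of the path spread from -3.75 to 2.65 around a median of -1.68. The medians of the other lists lie near 0, at -0.049, -0.081 and 0.035, with genes spread on both sides.

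Markers of ovarian cell types were read on the same arrays. The 7 of 8 luteal markers measured were all lower on average in DHT (median -1.20, none called). Against CTL replicate 3 alone their median was -0.18. Their summed linear level was 948 to 2497 in DHT and 3745 to 14982 in CTL, with Pgr and Cited4 at background. Among the luteal markers A2m and Rln1, the relaxin gene, had differences of -5.63 and -6.42 (limma adjusted p 0.104 and 0.227). Rln1 spread widely in CTL, at 5.53, 12.16 and 10.11 on replicates 1 to 3. The 9 of 10 granulosa markers measured were all higher on average (median 0.97, or 0.65 against CTL replicate 3 alone). Their sums were 12784 to 15547 in DHT and 5389 to 8599 in CTL. Of these Inhba, the activin subunit, rose by 1.45 (limma adjusted p 0.0692). Of 7 theca markers measured, 5 were higher and 2 lower on average (median 0.26, or 0.68 against CTL replicate 3 alone), with Hhip at background. Their sums were 1147 to 1618 in DHT and 485 to 977 in CTL. Most of each sum came from 1 gene, Nr2f2, which read 9.62 to 10.21 in DHT and 8.44 to 9.13 in CTL. Insl3, a peptide hormone of theca cells, rose by 3.11 (limma adjusted p 0.0575). Sums for the luteal markers thus ran in the direction of Star, Cyp11a1, Fdx1 and Cyp19a1. Those for granulosa and theca markers ran in the direction of Hsd17b1 and Cyp17a1, opposite to that of Cyp19a1. The part of cell numbers in any of these differences was not tested.

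Adrenal cortex shares the first steps of the path, from cholesterol to progesterone. Its defining markers Cyp11b1 and Cyp21a1 were at background on all arrays. The 4 adrenal markers measured had a median of -0.91, or -0.55 against CTL replicate 3 alone, with none called. Mrap and Akr1b7 had differences of -2.80 and -1.77 (limma adjusted p 0.441 and 0.62). All 10 macrophage markers were lower on average in DHT (median -0.89, sums 277 to 352 against 486 to 1114), with Ctss called lower (-1.16, limma adjusted p 0.0994). Of endothelial markers 6 of 7 were lower on average (median -0.74, none called). Against CTL replicate 3 alone the macrophage and endothelial medians were -0.39 and -0.44. Of 6 oocyte markers measured, 3 were higher and 3 lower on average (median 0.11, or 0.47 against CTL replicate 3 alone), with Zp1 and Bmp15 at background. Only Zp2 was called, and it rose by 1.55 (limma adjusted p 0.087). Sums of the 6 oocyte markers were 93.5 to 123 in DHT and 57.5 to 80.0 in CTL. None of the smooth muscle, adipocyte, red blood cell or surface epithelium markers was called, and their medians were 0.22, -0.068, -0.025 and 0.18. Against CTL replicate 3 alone these medians were 1.49, -0.13, -0.11 and 0.086.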

How the data were processed

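Total RNA of ovarian cortex was hybridised to Affymetrix rat arrays, with 8 arrays deposited. GCRMA normalization by the authors gave the deposited log2 values, 1 per probe set and array, with background correction and summarization already done. The deposited table was used as it stood. Gene symbols came from the array annotation, matched to RefSeq by Entrez gene for 20758 of 20826 probe sets with 1 symbol, while 436 carry several symbols and 9780 none here. No test included the 57 Affymetrix controls.

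The 3 DHT and 3 CTL arrays of single animals were compared with limma 3.58.1 (lmFit, eBayes) under R 4.3.3, and p-values were adjusted by Benjamini-Hochberg over 31042 probe sets. Probe sets for taste, vomeronasal and olfactory receptors, 41 in all, set the background level of an array at their 95th percentile. Single differences were tested by exact permutation. Tested on simulated data of this size, the fit recovered 62% of 50 probe sets changed by 1.5 on the log2 scale, 68% at 2, 88% at 3 and 92% at 4, with 11 false calls. The changed probe sets were drawn from the whole table, of which 32.3% was dim on all 6 arrays, and each kept its own spread. These shares therefore do not apply to genes as variable as Star (SE 0.97).

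The genes and lists were chosen with earlier results of these data known. Genes named one by one were the genes of the path, the called genes of each list of the path or otherwise up to 4 with the smallest p, up to 2 per marker list, and the 2 of nearest profile. Akr1c3, Nr5a1 and genes at background were named after their values were seen. Alternatives tried were quantile and median scaling, a mean-variance trend, array weights, a filter on dim probe sets, other call criteria, all probe sets of a gene averaged, the replicate number as a block, the pooled arrays as a further replicate, a Gapdh 3' to 5' covariate and each array left out. The number of arrays limits the precision.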

Additional observations from a re-analysis of the deposited data

How the results depend on the processing

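The direction of all 7 genes was the same under all alternatives run, but some sizes moved by more than 1.5 times. With the Gapdh covariate Fdx1 was -0.63, Cyp11a1 -1.93 and Cyp17a1 4.19, with array weights Cyp19a1 was -1.79 and Hsd3b1 -0.15, and with quantile normalization Hsd3b1 was -0.45. The only fit to call any of the 7 genes counted the pooled arrays as replicate 4. That fit called 4 of the genes lower and 1 higher: Star -3.87, Cyp11a1 -3.15, Fdx1 -1.71, Cyp19a1 -3.05 and Hsd17b1 2.05. It also called 966 probe sets over the table, 1 other steroid enzyme lower and 2 supply genes lower. Between the pooled arrays Hsd3b1 differed by -0.40, against -0.25 in the single animals. The arrays of the 2 groups share replicate numbers, but same-numbered arrays deviated together with correlations of -0.074, 0.443 and 0.342, so the numbers were not taken as pairs, and not every array correlated best with its own number. With the replicate block 0 probe sets were called over the table, with 0 supply genes lower and 0 regulators higher.

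Of all probe sets, 320 were called in the comparison as reported. The count was 173 with quantile normalization, 61 with a mean-variance trend, 1874 with array weights, 29 at an adjusted p of 0.05 without a fold limit, 660 without a limit on the false discovery rate and 3747 with the Gapdh covariate. In the lists around the path, regulators called higher, 2 as reported, were 1 with quantile normalization, 0 with median scaling, with the mean-variance trend and at an adjusted p of 0.05, 4 with array weights and 5 with the Gapdh covariate. Regulators called lower were 1 with array weights. Supply genes called lower were 0 at an adjusted p of 0.05 and 2 with the Gapdh covariate, which also called 5 supply genes and 4 other steroid enzymes higher. Other steroid enzymes called lower were 1 with dim probe sets left out, with array weights and without a limit on the false discovery rate. The cause of these changes was not tested. The weight of CTL replicate 3 was 0.028, while the other arrays had weights between 1.07 and 7.76.

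With each array left out in turn, 0 to 1622 probe sets were called. The count was 0 when any DHT array was missing, 181 when CTL replicate 1 was missing, 92 when CTL replicate 2 was and 1622 when CTL replicate 3 was. None of the 7 genes was called in these fits. Supply genes called lower ranged from 0 to 1, other steroid enzymes lower from 0 to 1, regulators lower from 0 to 1 and regulators higher from 0 to 3. The differences ranged from -4.56 to -2.75 for Star, -3.78 to -2.13 for Cyp11a1, -2.10 to -1.09 for Fdx1, -0.32 to -0.16 for Hsd3b1, 1.99 to 3.57 for Cyp17a1, -3.94 to -2.22 for Cyp19a1 and 1.56 to 2.35 for Hsd17b1. Leaving out DHT replicate 3 gave the difference nearest to 0 for Star, Cyp11a1, Fdx1, Hsd3b1 and Hsd17b1 and the largest for Cyp17a1.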
